A study of Canis lupus familiaris with 34 samples.

Results

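The voltage-gated sodium channel genes described here are SCN1A, SCN2A, SCN3A, SCN7A, SCN9A, SCN2B and SCN4B, together with LOC102724058, a transcript annotated inside SCN1A. They are 8 of the 23768 features in the count table. A feature was taken when its name equalled the gene symbol, and the canine annotation was used in place of the human one where both were listed, which applied to SCN2B. The set was selected on the fold changes of SCN1A and LOC102724058 between dogs with and without heart failure, so the values of that contrast are given below as a description without a test. All 8 had the 100 counts over the dogs that were required of a tested feature, and 7 of the 8 also passed the stricter filter of edgeR, which LOC102724058 did not.

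Poly-A RNA of the mitral valve was sequenced in 34 Cavalier King Charles Spaniels (CKCS) of about 10 years, which were privately owned dogs. The 10y-noCHF group held 19 dogs (10 females and 9 males) without congestive heart failure (CHF), nearly all of them with milder stages of myxomatous mitral valve disease (MMVD). The 10y-MMVD-CHF group held 15 dogs (6 females and 9 males) whose MMVD had progressed to CHF. The groups therefore compare mostly stages of one disease within one breed, and each sample is 1 dog. In 10y-noCHF, 1 dog had no structural heart disorder that could be identified. The paper lists response to diuretic treatment among its criteria for CHF, so stage and such treatment cannot be told apart here.

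Voltage-gated sodium channels open when a membrane depolarises and carry the inward current that starts an action potential. A channel consists of a pore-forming alpha subunit, encoded by genes such as SCN1A, and of smaller beta subunits, encoded by genes such as SCN2B and SCN4B, which change the gating and the placement of the pore. SCN1A, SCN2A and SCN3A are best known from neurons of the brain and SCN9A from pain-sensing neurons, whereas SCN7A encodes a channel opened by sodium concentration rather than voltage and is known from Schwann cells and other non-neuronal cells.

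On the dog genome canFam4, the 5 alpha subunit genes lie within 1267 kb of chromosome 36. SCN3A spans 10598054 to 10703689 on the minus strand and SCN2A 10771026 to 10905705 on the plus strand. SCN1A spans 11402631 to 11547010, SCN9A 11588431 to 11684658 and SCN7A 11782606 to 11864616, all on the minus strand. LOC102724058 spans 11434358 to 11451434 on the plus strand, so that all of its 17077 bases lie inside SCN1A. The beta subunit genes are neighbours on the plus strand of chromosome 5, SCN2B from 15546637 to 15559352 and SCN4B from 15569033 to 15589543, with 9680 bases between them. Every interval but that of SCN9A covered between 99.8% and 100% of the gene in the RefSeq annotation of the same assembly, where LOC102724058 was not matched, and the SCN9A interval covered 60.2% and lacked 63601 bases, nearly all of them at the 5′ end.

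**Figure D1:**
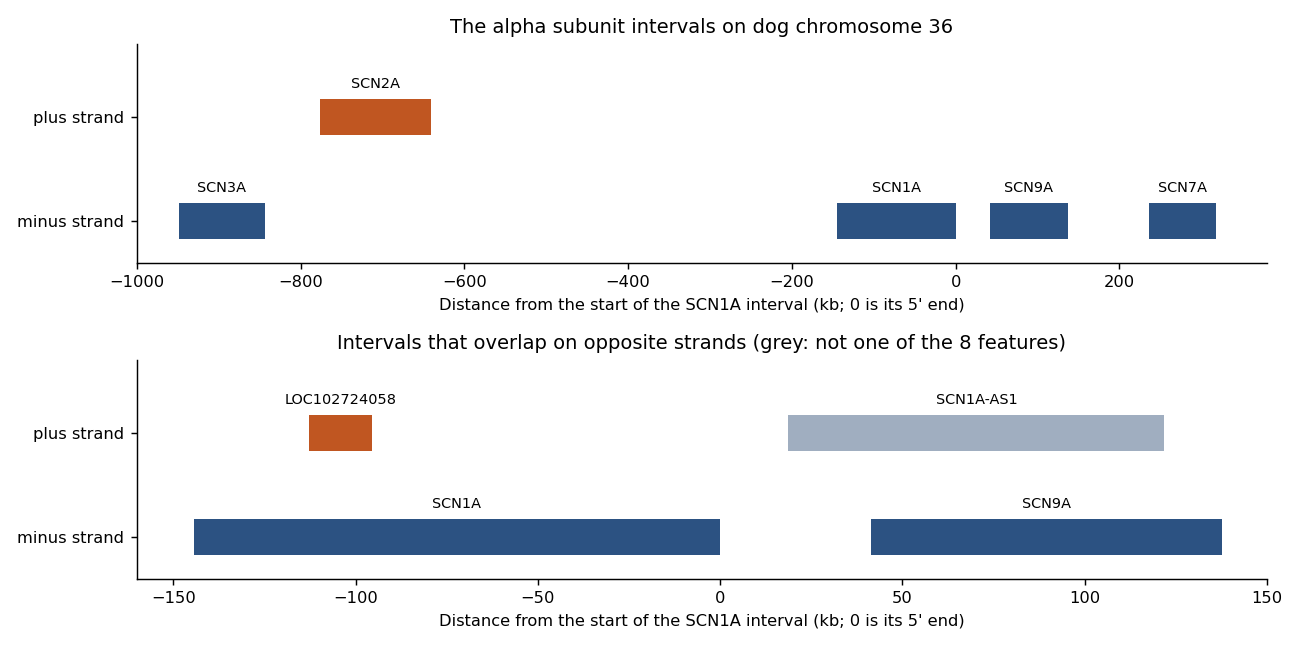
Positions of the counted intervals on dog chromosome 36, as the distance in kb from the 5′ end of the SCN1A interval, with the strand on the vertical axis; blue and orange bars are the features described here on the minus and plus strand, and the grey bar is SCN1A-AS1. The lower panel shows LOC102724058 inside SCN1A, and SCN1A-AS1 sharing 80499 bases with SCN9A.

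The annotation decides what was counted. The 7 features taken from human transcripts (all but SCN2B) are whole gene intervals, introns included, whereas the canine SCN2B feature holds 4376 exon bases. Where both kinds were listed, exons took 98.3% of the interval's counts for SCN2B and 69.9% for the alpha subunit gene SCN10A. Levels are given as CPM, the counts scaled to the size of each library with TMM normalization, and are compared between dogs and not between genes. Counting used no strand and credited a read to every feature it overlapped, so SCN1A and LOC102724058 share reads, and so do SCN9A and SCN1A-AS1. Both reads of a pair were counted, and 82.6% of the 253 counts above 0 of the 8 features were even.

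The libraries held 46185256 to 82361245 counts per dog. The 9 markers of valve interstitial cells, the fibroblast-like cells that make up most of the valve, were above 0 in every dog. Heart muscle RNA varied widely: the cardiomyocyte score, defined as the mean log2 CPM of 19 cardiomyocyte markers, ran from -0.33 to 10.8 with a median of 6.78. The highest correlation of CPM with any other dog, over features with at most 10000 counts on average, was 0.842 for the 10y-MMVD-CHF male CAV614 and 0.923 for the 10y-MMVD-CHF female CAV1047, against 0.938 or more for every other dog. Results are therefore also given without these 2 dogs.

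SCN1A had counts in all 34 dogs at a low level, from 4 to 302 over an interval that includes introns. Under 20 counts were found in 1 dog of 10y-noCHF and in 6 dogs of 10y-MMVD-CHF, so the low values of 10y-MMVD-CHF rest on few reads. In 10y-noCHF SCN1A had a lowest value of 0.248 CPM, a median of 1.32 CPM and a highest value of 4.96 CPM. In 10y-MMVD-CHF the lowest value was 0.0580 CPM, the median 0.456 CPM and the highest 1.90 CPM. The groups overlapped, but 13 of the 15 dogs of 10y-MMVD-CHF lay below the median of 10y-noCHF, and 6 of the 19 dogs of 10y-noCHF lay above every dog of 10y-MMVD-CHF. The fitted log2 fold change was -1.56 (standard error 0.417), that is 0.338 of the level in 10y-noCHF, and it was -1.41 without CAV614 and CAV1047. In bulk tissue, fewer cells with SCN1A RNA and less SCN1A RNA per cell cannot be told apart. Over all 19568 tested features, 23 passed the FDR threshold of 0.1 for CHF status in either direction, which is 0.118% (edgeR quasi-likelihood test with Benjamini-Hochberg adjustment).

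LOC102724058, a transcript of no established function, was close to the limit of detection. It had counts in 15 of 19 dogs of 10y-noCHF, with a lowest value of 0, a median of 0.118 CPM and a highest value of 0.313 CPM. In 10y-MMVD-CHF it had counts in 4 of 15 dogs, with a lowest value and a median of 0 and a highest value of 0.114 CPM. A count of 0 allows up to 3 counts if counts are independent, which were worth between 0.0360 and 0.0769 CPM in these libraries. Both reads of a pair were counted, so counts are not independent and this floor is too low. All counts together came to 140 in 10y-noCHF and 14 in 10y-MMVD-CHF, and the fitted log2 fold change was -2.92 (standard error 0.719), or -2.755 without CAV614 and CAV1047.

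Every read in the LOC102724058 interval was also counted on SCN1A, and these made up 5.92% of the SCN1A counts in 10y-noCHF and 2.35% in 10y-MMVD-CHF. Per kb of interval, LOC102724058 had 8.20 counts summed over 10y-noCHF and 0.820 over 10y-MMVD-CHF. The rest of SCN1A had 17.5 and 4.56 counts per kb, so the interval held fewer counts per kb than its surroundings in both groups. With the shared counts taken off SCN1A, an alternative added after the data were seen, its log2 fold change was -1.51. The strand of these reads was not recorded, so the sense and antisense transcripts cannot be told apart.

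**Figure D2:**
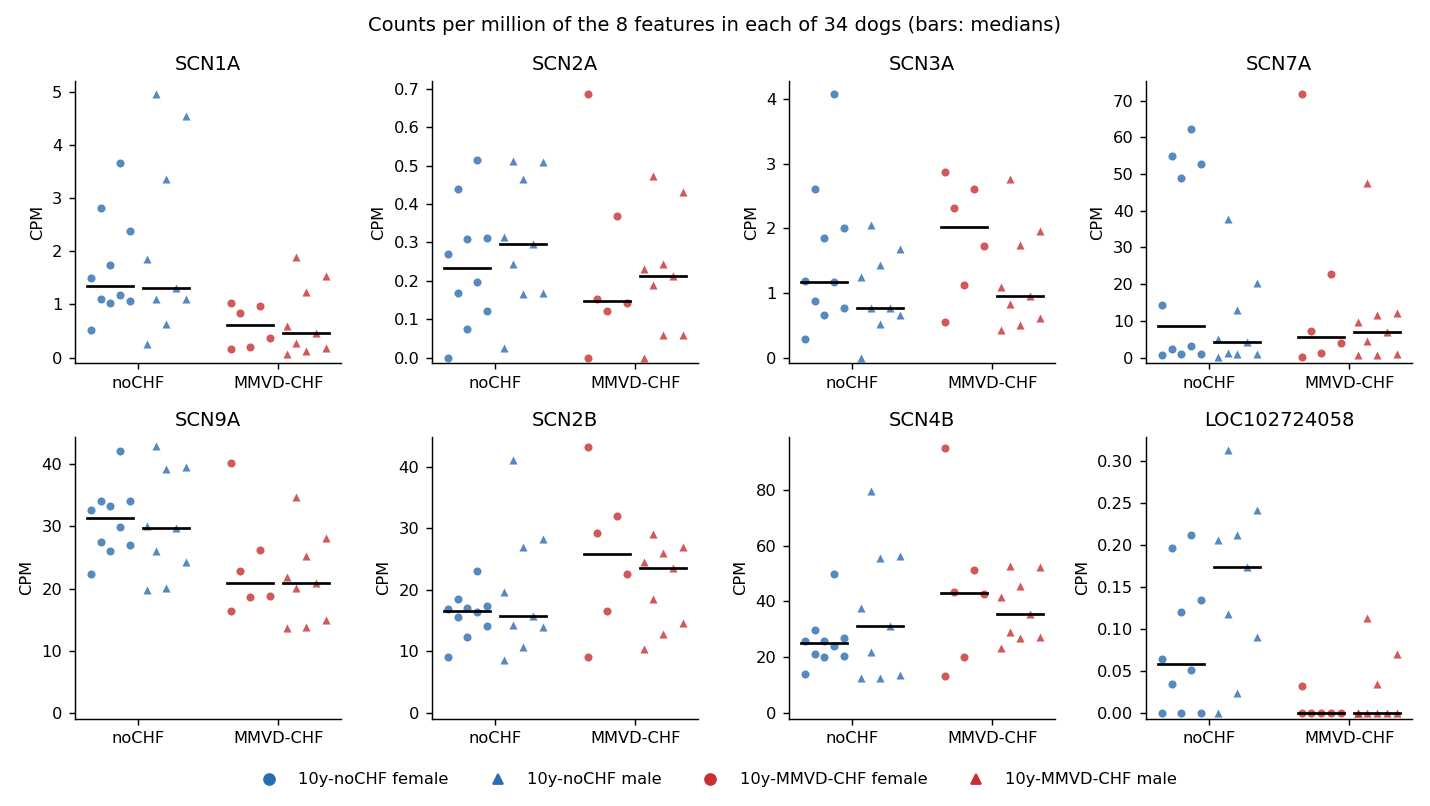
CPM (vertical axis, linear, from 0) of each of the 8 features in each of the 34 dogs, blue for 10y-noCHF and red for 10y-MMVD-CHF, circles for females and triangles for males, with a black bar at the median of each sex within a group. SCN1A reached 4.96 CPM in 10y-noCHF and 1.90 CPM in 10y-MMVD-CHF, LOC102724058 was at 0 in 11 of 15 dogs of 10y-MMVD-CHF, and the groups overlapped for all 8 features.

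SCN9A, the alpha subunit next to SCN1A, was the steadiest of the alpha subunits, with a 3.13-fold range between the lowest and the highest dog. Its lowest, median and highest values were 19.8, 29.97 and 42.99 CPM in 10y-noCHF and 13.8, 20.9 and 40.2 CPM in 10y-MMVD-CHF. Of the 15 dogs of 10y-MMVD-CHF, 13 lay below the median of 10y-noCHF and 6 lay below its lowest dog. The fitted log2 fold change was -0.44 (standard error 0.135), and -0.42 without CAV614 and CAV1047. SCN9A shares 80499 bases with the antisense interval SCN1A-AS1, which holds 94.6% as many counts and was fitted at -0.46 between the groups (standard error 0.136). In single dogs that percentage ran from 87.6% to 97.6%, and without strand the counts of the pair cannot be divided between them.

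SCN2A, SCN3A and SCN7A differed little between the groups relative to their spread among dogs. SCN2A had 0 to 50 counts per dog and was at 0 in 3 of 34 dogs, with medians of 0.270 CPM in 10y-noCHF and 0.189 CPM in 10y-MMVD-CHF and was fitted at -0.25 on the log2 scale (standard error 0.482). That value was -0.14 without CAV614 and CAV1047, -0.54 without CAV1519 and -0.65 with limma voom. SCN3A had medians of 1.17 and 1.13 CPM, a highest value of 4.08 CPM in 10y-noCHF and 2.88 CPM in 10y-MMVD-CHF, and was fitted at 0.26 (standard error 0.374). Without CAV614 and CAV1047 it was 0.27, leaving out single dogs gave 0.13 (without CAV2156) to 0.39 (without CAV1731), and limma voom gave 0.66. SCN7A was the most variable, from 0.0387 CPM through a median of 4.36 CPM to 62.3 CPM in 10y-noCHF, and from 0.0303 CPM through 6.90 CPM to 71.8 CPM in 10y-MMVD-CHF. That is a 2369-fold range, and the log2 fold change of -0.10 (standard error 0.762) became -0.50 without CAV614 and CAV1047. Leaving out a single dog turned it to 0.28 (without the 10y-noCHF male CAV285) or to -0.59 (without CAV1047).

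Both beta subunits had a higher median in 10y-MMVD-CHF than in 10y-noCHF. SCN2B, a beta subunit linked to its alpha subunit by a disulfide bond, had lowest, median and highest values of 8.67, 16.3 and 41.04 CPM in 10y-noCHF and 9.18, 23.5 and 43.1 CPM in 10y-MMVD-CHF. SCN4B, a beta subunit of the same kind, had 12.4, 25.9 and 79.7 CPM in 10y-noCHF and 13.3, 41.4 and 94.9 CPM in 10y-MMVD-CHF. Of 15 dogs of 10y-MMVD-CHF, 11 for SCN2B and 12 for SCN4B lay above the median of 10y-noCHF, while the ranges of the groups overlapped almost completely. The log2 fold changes were 0.34 (standard error 0.197) for SCN2B and 0.39 (standard error 0.248) for SCN4B, and 0.42 and 0.50 without CAV614 and CAV1047. Without CAV1519, the 10y-MMVD-CHF female with the highest values, they were 0.23 and 0.21. Fitted within each sex, they were 0.67 and 0.78 in females and 0.05 and 0.06 in males, and the interaction with sex was not called.

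**Figure D3:**
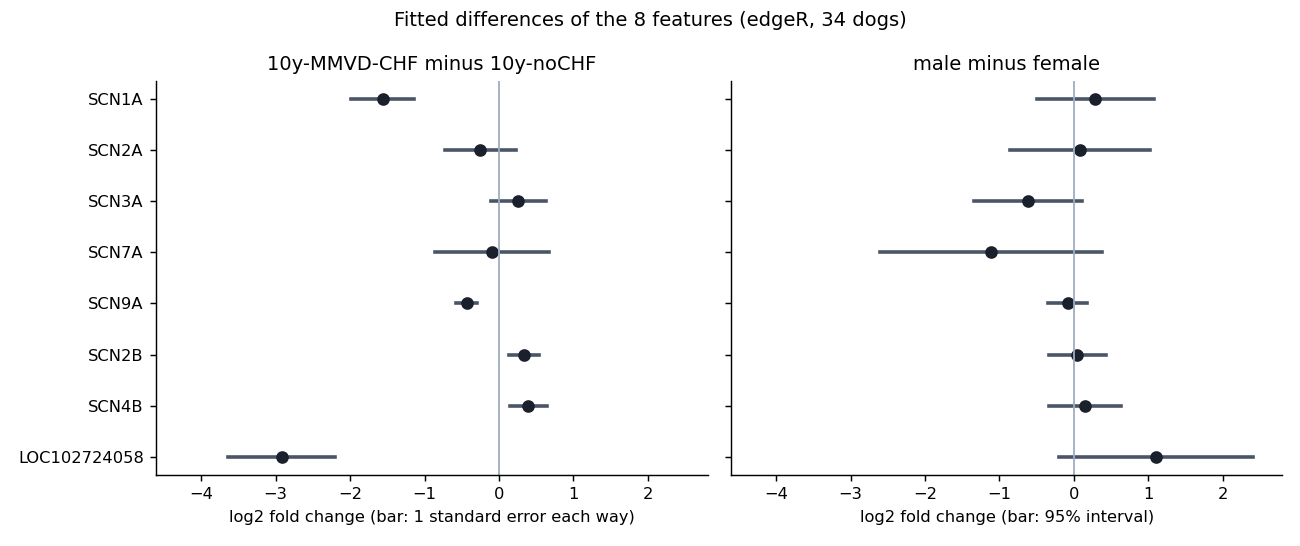
Fitted log2 fold changes (horizontal axis) of the 8 features between the groups, with 1 standard error each way and shown as a description, and between the sexes, with 95% intervals. SCN1A, SCN9A and LOC102724058 lie to the left of 0 in the group panel (-1.56, -0.44 and -2.92), and all 8 intervals of the sex panel include 0.

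The sexes were compared in the same fit, in a contrast that played no role in choosing the genes. None of the 8 features passed the FDR threshold for sex, where 28 of 19568 features did (0.143%), and none of the 8 had an unadjusted p below 0.05 with edgeR, DESeq2 or limma voom. The differences furthest from 0 were -1.11 for SCN7A (95% interval -2.60 to 0.38, edgeR FDR = 0.9997), 1.10 for LOC102724058 (-0.20 to 2.398, edgeR FDR = 0.9997) and -0.62 for SCN3A (-1.35 to 0.11, edgeR FDR = 0.9997), as log2 of male over female. For SCN9A the interval of -0.35 to 0.18 was narrow, whereas that of SCN7A allows differences of more than 2 on the log2 scale. The value of SCN7A was -0.65 without CAV1047, -0.61 without CAV614 and CAV1047 and -0.14 with limma voom. SCN3A had a median of 1.45 CPM in females and 0.893 CPM in males.

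Whether the difference between the groups depended on sex was tested as an interaction. It was called for 0 of the 8 features and for 0 of 19568 features (0%) with edgeR, where 1178 features and 0 of the 8 had an unadjusted p below 0.05. DESeq2 called 3 features and limma voom 0, none of them among the 8. The log2 fold change of SCN1A between the groups was -1.52 (standard error 0.643) in females and -1.60 (standard error 0.564) in males. Those of SCN2B were 0.67 (standard error 0.285) and 0.05 (standard error 0.264), and those of SCN4B 0.78 (standard error 0.359) and 0.06 (standard error 0.334), and the interaction gave edgeR FDR = 0.863 and 0.878 for the beta subunits.

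SCN7A rose with the heart muscle RNA of the sample, and both beta subunits fell with it. With sex and CHF status in the fit, the slope per unit of the cardiomyocyte score was 0.76 for SCN7A on the log2 scale (standard error 0.0640, edgeR FDR = 6.94e-12), -0.10 for SCN2B (standard error 0.0270, edgeR FDR = 0.00306) and -0.14 for SCN4B (standard error 0.0346, edgeR FDR = 0.00244). Rising slopes were called for 18.8% and falling slopes for 18.3% of the 19549 tested features that are not cardiomyocyte markers, so 1 rising and 2 falling features among 8 are near the share of all features. For SCN1A the slope was -0.0035 (95% interval -0.144 to 0.137), and for SCN9A -0.0100 (-0.0536 to 0.0337), neither of them called. SCN3A had 0.10 (edgeR FDR = 0.218) and was called with limma voom (FDR = 0.0699). Without CAV614 and CAV1047 the 3 called slopes were 0.77, -0.10 and -0.14, all still called.

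The dogs at the ends of the score show what these slopes stand for. CAV749, with the lowest score of -0.33, had 0.0387 CPM of SCN7A, 26.9 CPM of SCN2B and 56.3 CPM of SCN4B. CAV1047, with the highest score of 10.8, had 71.8 CPM of SCN7A, 9.18 CPM of SCN2B and 13.3 CPM of SCN4B. With the score in the fit, the log2 fold change between the groups, again a description, remained -1.56 for SCN1A and -0.42 for SCN9A, and was -0.48 for SCN7A, 0.39 for SCN2B and 0.49 for SCN4B.

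**Figure D4:**
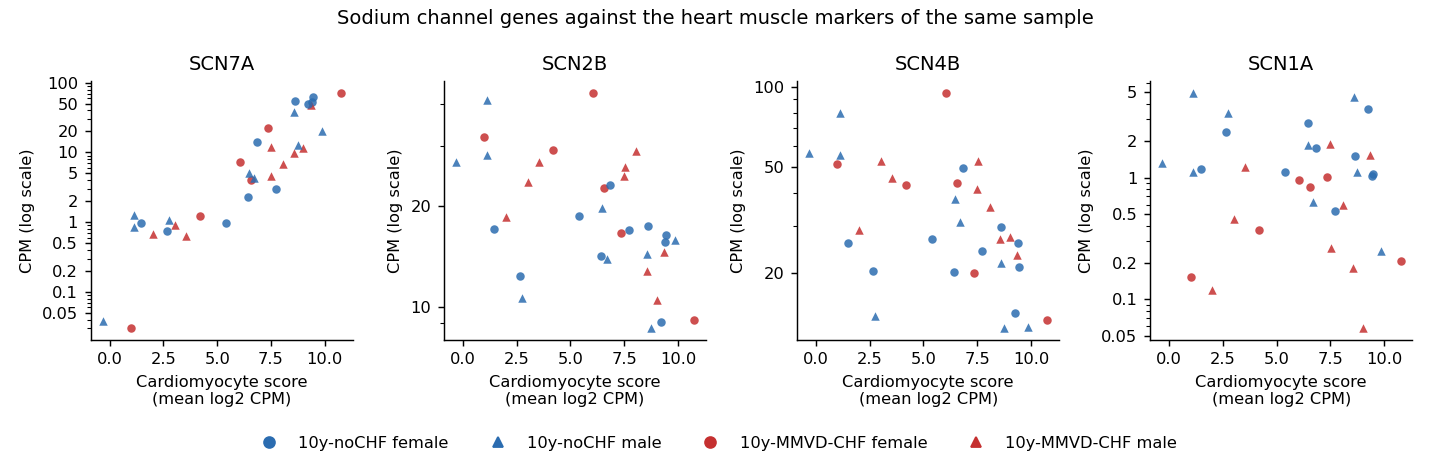
CPM (vertical axis, log scale) of SCN7A, SCN2B, SCN4B and SCN1A against the cardiomyocyte score (horizontal axis, mean log2 CPM of 19 markers) in 34 dogs, blue for 10y-noCHF and red for 10y-MMVD-CHF, circles for females and triangles for males. SCN7A climbs from 0.0387 CPM at the lowest score to 71.8 CPM at the highest, SCN2B and SCN4B decline, and SCN1A shows a slope of -0.0035.

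The same question was asked of 9 marker lists, as correlations over the 34 dogs of log2 CPM, taken as the deviation from each group and sex mean, for the 7 features with a median of at least 10 counts. Of 63 relations, 20 had an adjusted p below 0.1 for Spearman's rho (permutation within group and sex, two-sided, Benjamini-Hochberg). The share over all features was not measured for these correlations, and several of the lists moved together. For the fitted cardiomyocyte slope it was 18.8% rising and 18.3% falling, so the 20 relations are not read as particular to these features. SCN7A followed the Schwann cell list (Pearson r = 0.886, Spearman rho = 0.928, permutation p = 1e-05 for both, adjusted p = 2.1e-04), with r = 0.866 after leaving out the 2 dogs farthest from the median score and r = 0.937 and 0.817 within 10y-noCHF and 10y-MMVD-CHF. It followed the cardiomyocyte list as closely (r = 0.913, rho = 0.911, permutation p = 1e-05, adjusted p = 2.1e-04, r = 0.902 without the 2 farthest dogs, and 0.895 and 0.943 within the groups), where 1e-05 is the smallest p that 100000 permutations can give. The scores of these lists themselves moved together (rho = 0.878), so the part of either in the SCN7A level was not tested. With valve interstitial markers SCN7A ran the other way (r = -0.615, rho = -0.628, permutation p = 2.9e-04 and 2.6e-04, adjusted p = 0.00228 and 0.00234), with r = -0.553 without the 2 farthest dogs and -0.719 and -0.476 within the groups.

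The markers behind these scores were present. Of 19 cardiomyocyte markers 18 were above 0 in every dog, MYL2 being at 0 in 2 dogs, and their summed level ran from 57.9 to 28750 CPM in 10y-noCHF and from 82.6 to 60330 CPM in 10y-MMVD-CHF. Of the 9 Schwann cell markers measured, 7 were above 0 in every dog, with a sum of 76.3 to 304 CPM in 10y-noCHF and 55.0 to 470 CPM in 10y-MMVD-CHF, while FOXD3, a transcription factor of the neural crest, was at 0 in 14 dogs. Neuronal markers summed to 21.2 to 63.3 CPM and 13.2 to 101 CPM, with TH, the rate-limiting enzyme of catecholamine synthesis, at 0 in 32 dogs. None of the 9 scores differed between the groups at an adjusted p below 0.1 (permutation within sex, two-sided), and the smallest unadjusted p was 0.0511 for skeletal muscle markers, which were 0.487 lower in 10y-MMVD-CHF on the log2 scale. That list holds the myosin gene MYH1, which the paper reports as lower in dogs with CHF, so its score is not independent of that result. Of its 8 markers 6 were scored and 5 were at 0 in some dog, and CKM is also a cardiomyocyte marker.

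SCN3A followed neuronal markers (r = 0.673, rho = 0.628, permutation p = 7e-05 and 1.4e-04, adjusted p = 8.82e-04 and 0.00176), with r = 0.582 without the 2 farthest dogs and r = 0.716 and 0.600 within the groups. On log2(CPM + 1) that relation was not called (rho = 0.357, adjusted permutation p = 0.169), nor was the one of SCN7A with the neuronal list (0.273 in place of 0.756, adjusted permutation p = 0.349). The relation of SCN3A with Schwann cell markers (r = 0.499, rho = 0.526, permutation p = 0.00294 and 0.0023, adjusted p = 0.0124 and 0.0103, r = 0.459 without the 2 farthest dogs) was called on both scales. SCN1A showed no relation to any of the 9 lists, with rho from -0.320 (smooth muscle and pericytes, adjusted permutation p = 0.192) to 0.192 (valve interstitial cells, adjusted permutation p = 0.502). SCN9A likewise had no adjusted permutation p below 0.1, the smallest being 0.191 (r, smooth muscle and pericytes).

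SCN2B and SCN4B rose and fell together from dog to dog. Their correlation was r = 0.898 and rho = 0.897 (permutation p = 1e-05 for both, adjusted p = 2.1e-04 over the 21 pairs), with r = 0.866 without the 2 farthest dogs, 0.911 within 10y-noCHF and 0.894 within 10y-MMVD-CHF. The features share no bases, and across all tested features each was the nearest to the other by Spearman correlation. The dog highest in both was CAV1519, with 43.1 CPM of SCN2B and 94.9 CPM of SCN4B. The features most like SCN2B also included the phosphatase gene PTPN13 (rho = 0.812), and after SCN2B those most like SCN4B were the connexin gene GJB2 (0.832) and the Hippo pathway kinase LATS1 (0.829). Both beta subunits ran against the cardiomyocyte score (rho = -0.575 and -0.579, r = -0.536 and -0.545, permutation p from 0.00105 to 0.00376, adjusted p from 0.00601 to 0.0132) and with valve interstitial markers (rho = 0.529 and 0.458, r = 0.594 and 0.495, permutation p from 1.7e-04 to 0.00693, adjusted p from 0.00179 to 0.0257).

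SCN1A and SCN9A, neighbours on the minus strand whose intervals do not overlap, also varied together, more loosely (r = 0.508, rho = 0.486, permutation p = 0.00717 and 0.00966, adjusted p = 0.0502 and 0.0406). The correlation was r = 0.467 without the 2 farthest dogs, and 0.388 and 0.599 within 10y-noCHF and 10y-MMVD-CHF. Because the SCN9A interval shares 80499 bases with SCN1A-AS1 and counting used no strand, a relation of SCN1A to SCN9A or to SCN1A-AS1 cannot be told apart. SCN3A and SCN7A were related as well (r = 0.576, rho = 0.511, permutation p = 8.2e-04 and 0.00312, adjusted p = 0.00861 and 0.0328, r = 0.483 without the 2 farthest dogs, and 0.676 and 0.415 within the groups). SCN7A ran against SCN2B and SCN4B (r = -0.464 and -0.459, rho = -0.458 and -0.461, r = -0.410 and -0.399 without the 2 farthest dogs; for rho, permutation p = 0.00851 and 0.00794, adjusted p = 0.0406 for both), and these relations were not called without CAV614 and CAV1047 (rho = -0.405 and -0.407, adjusted permutation p = 0.112 for both). SCN1A and SCN3A were also called (rho = 0.397, permutation p = 0.0243, adjusted p = 0.0852). That relation was not called on log2(CPM + 1) (adjusted permutation p = 0.111) or without these dogs (adjusted permutation p = 0.112). Of the 21 pairs 6 were called, 5 on log2(CPM + 1) and 3 without these dogs. The share among pairs of all features was not measured.

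**Figure D5:**
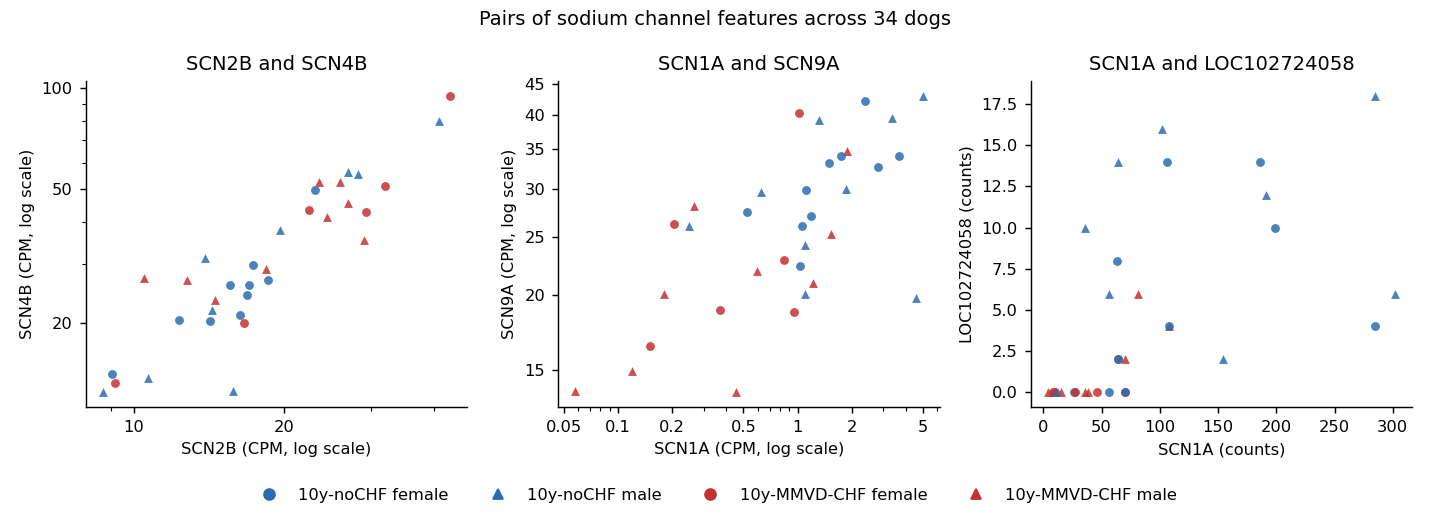
SCN4B against SCN2B and SCN9A against SCN1A in CPM (both axes log scale), and LOC102724058 against SCN1A in counts (linear axes), 1 point per dog, blue for 10y-noCHF and red for 10y-MMVD-CHF, circles for females and triangles for males. SCN2B and SCN4B lie along a line (rho = 0.897), SCN1A and SCN9A scatter more (rho = 0.486), and LOC102724058 has at most 18 counts.

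Other features resembled single members, as a description over 34 dogs. Closest to SCN1A were ADGRB3, an adhesion receptor known from synapses (rho = 0.719), SRGAP3 (0.681), DNMBP (0.664), MAPKBP1 (0.664) and the orphan nuclear receptor gene NR6A1 (0.654). Closest to SCN7A were MIR133A1HG, the host gene of a muscle microRNA (rho = 0.963), RNF207 (0.960) and ADAMTS20 (0.959). SCN3A was closest to RNF152 (0.690), FER1L6-AS2 (0.681) and CCL21, a chemokine of lymphatic endothelium (0.681), and SCN9A to MOB3B (0.656), QRICH1 (0.651) and CCDC110 (0.592). For SCN2A, with a median of 14 counts, they were INAVA (0.637), NFX1 (0.614) and HENMT1 (0.582).

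The remaining genes of membrane excitability did not pass the test for CHF status. Of 42 listed genes 40 were measured, 0 were called (beside 0.118% of all features), 18 had lower and 22 higher fitted values in 10y-MMVD-CHF, and the median log2 fold change was 0.02, beside 0.01 for all tested features. At an unadjusted p below 0.05 there was 1 gene with edgeR and 1 with DESeq2, and 4 with limma voom, with 0 called by any of them, beside 1234, 1377 and 1975 of the 19568 features. Among the 7 other sodium channel subunits (3 lower, 4 higher, median 0.09), the smallest p-values belonged to SCN8A, a neuronal alpha subunit, at -0.31 (standard error 0.180, edgeR FDR = 0.836) and SCN3B, a beta subunit, at -0.39 (standard error 0.247, edgeR FDR = 0.848). Among the 16 channel partners (9 lower, 7 higher, median -0.0026) they were ANK2, the anchoring protein ankyrin-B, at -0.15 (standard error 0.0716, edgeR FDR = 0.778) and CNTN1, a contactin, at -0.58 (standard error 0.362, edgeR FDR = 0.848). The 17 other channels of excitable cells (6 lower, 11 higher, median 0.03) were led by the potassium channel genes KCNJ2 at 0.39 (standard error 0.224, edgeR FDR = 0.832) and KCNQ1 at -0.14 (standard error 0.0970, edgeR FDR = 0.863).

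By contrast, many of these genes followed the heart muscle RNA of the sample. Of the 40 genes, 22 rose and 4 fell with the cardiomyocyte score, beside 18.8% and 18.3% of all features. The following were picked after their values were seen. SCN10A had a slope of 0.94 (standard error 0.0872, edgeR FDR = 9.49e-11), the pacemaker channel gene HCN4 1.04 (standard error 0.0549, edgeR FDR = 1.75e-17) and CAV3, which encodes the muscle caveolin, 1.09 (standard error 0.0371, edgeR FDR = 2.94e-23). SCN3B (0.0082, edgeR FDR = 0.904) and SCN8A (0.0388, edgeR FDR = 0.322) were not called.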

How the data were processed

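Poly-A RNA of 34 mitral valves had been sequenced as 150 bp read pairs. The authors aligned them to the dog assembly canFam4 (STAR). The deposited table holds raw counts from featureCounts 2.0.3 on 2165 canine RefSeq features and 21603 human XenoRefSeq features, with no strand, every overlapping feature credited and both reads of a pair counted. The versions of STAR and FastQC are not given in the sources used here. One column of the table (1 in all) belonged to none of the samples and was not used. No 2 libraries were identical.

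Groups and sex were taken from the sample titles. Features with at least 100 counts over all dogs were fitted with edgeR 4.0.16 (TMM, quasi-likelihood test, sex and CHF status as terms) in R 4.3.3, with FDR thresholds of 0.1. Standard errors are the log2 fold change divided by the root of the F statistic and are approximate, as are the 95% intervals made from them. Log2 CPM used a prior count of 2. Correlations used 100000 permutations of dogs within group and sex. Genes were named by a rule: the 8 features, per list of excitability genes every called gene and the 2 smallest p, and the 3 features (5 for SCN1A) with the highest Spearman correlation to a feature with a median of at least 10 counts, leaving out overlapping ones. The 8 features, gene lists and dogs left out were chosen with earlier results of these data known. DESeq2 1.42.0, limma 3.58.1 (voom with sample weights), other normalizations, filters and covariates, and leaving out dogs were alternatives. The edgeR fit for CHF status and the permutation correlations were tested on simulated data. The other steps were not. Each sample is a separate dog, so p-values and the intervals of fitted differences rest on the spread between dogs, whereas the floors for counts of 0 cover counting error only. No sequences are shown, and results for some genes of the lists and of the rule are not reported here.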

Additional observations from a re-analysis of the deposited data

Results flagged for a closer look

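Within each sex of each group, the gap between the most extreme dog and its neighbour, as a share of the range of log2 CPM, was compared with the 95% critical value of Dixon's test, for 8 features in 32 sets. Chance flags about 1 in 20 sets, or 1.6 of 32, and 3 were flagged. In 10y-noCHF males, CAV749 was the lowest dog for SCN3A (gap 0.683 of the range, 0 counts, against 0.523 CPM for the next dog) and for SCN2A (gap 0.548, 2 counts and 0.0258 CPM, against 0.165 CPM). The same dog had the lowest cardiomyocyte score, -0.33, and 39.2 CPM of SCN9A. In 10y-MMVD-CHF females, CAV1876 was the single dog with LOC102724058 counts (gap 1 of the range), which were 2 counts or 0.0318 CPM. With the other 5 dogs at 0, any count gives this gap, and 2 counts lie under the floor of 3 that a count of 0 allows, so this flag carries no information and 2 of the flags remain. No feature of the 8 had a called interaction of CHF status and sex.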

How the results depend on the processing

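The number of features called for CHF status was 23, and 9 at an FDR threshold of 0.05, 64 with DESeq2 and 13 without the sex term. Leaving out 1 dog gave 8 (without CAV1519) to 28 (without CAV743), and moved the count by over 1.5 times for 15 of 34 dogs. No alternative called a feature of the 8 that it tested for sex or for the interaction (LOC102724058 did not pass filterByExpr and had no adjusted p for sex with DESeq2), or any listed excitability gene for CHF status. Called score slopes numbered 3 in every alternative but limma voom, with 4. Called pairs numbered 6, with 5 on log2(CPM + 1) and 3 without CAV614 and CAV1047. Over dogs left out singly, the log2 fold change of SCN1A ranged from -1.74 (without CAV1097) to -1.42 (without CAV1939) and that of LOC102724058 from -3.46 (without CAV373) to -2.80 (without CAV1939), and limma voom gave -1.75 and -2.69. Small uncalled values changed sign. With limma voom the sex difference was -0.038 for SCN1A and -0.0309 for SCN2B, and the score slope of LOC102724058 was -0.0666. With filterByExpr the score slope of SCN1A was 0.0026. Leaving out 1 dog gave sex differences of -0.0183 to 0.35 for SCN2A, -0.0766 to 0.15 for SCN2B and -0.13 to 0.0040 for SCN9A, and score slopes of -0.0357 to 0.0362 for SCN1A and -0.0346 to 0.0660 for LOC102724058. The cause of these changes was not tested. No paired analysis was possible because replicate numbers only follow the order of the samples. Depth limits LOC102724058, with a median of 2 counts per dog, and SCN2A, with 14.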

Other observations

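The relation of SCN9A to SCN7A differed in sign between the groups, with r = -0.544 over the 19 dogs of 10y-noCHF and r = 0.578 over the 15 dogs of 10y-MMVD-CHF. SCN9A showed the same pattern with SCN3A (-0.414 and 0.592) and with the cardiomyocyte score (-0.585 and 0.526). Whether the groups differ in these relations was not tested, and the pairs were singled out after their values were seen. Over all 34 dogs the correlations were 0.0325 with SCN7A, -0.0205 with SCN3A and -0.0468 with the score.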
